A study of Homo sapiens with 2 samples.

Results

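The 7 UGT2B genes UGT2B17, UGT2B15, UGT2B10, UGT2B7, UGT2B11, UGT2B28 and UGT2B4 were examined as a group in the enzalutamide-resistant C4-2B line. All peaks of both deposited lists that touched a member's gene body, or the 20 kb on either side of it, were taken (RefSeq genes, GRCh38). This gave 4 of the 64784 H3K27ac peaks and 12 of the 139511 H3K4me1 peaks on chromosomes 1 to 22 and X. C4-2B descends from LNCaP and is a human prostate cancer line that grows without testicular androgen. The resistant cells had been grown for at least 6 months with enzalutamide, an antiandrogen drug. CUT&Tag, in which an antibody guides a transposase to cut and tag marked chromatin, was done once for each mark with 100000 cells and 14 PCR cycles. H3K4me1 lies at enhancers and beside promoters, and H3K27ac at active enhancers and promoters. Both libraries come from the resistant cells, with no replicate, no drug-sensitive cells and no background library among the samples, so every value below describes this line and no test between conditions was possible.

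UDP-glucuronosyltransferases sit in the membrane of the endoplasmic reticulum and attach glucuronic acid, taken from UDP-glucuronic acid, to small lipophilic molecules, which makes them soluble and ready for export. UGT2B15 and UGT2B17 are the members best known in the prostate, where they conjugate dihydrotestosterone and its metabolites and so end their action. In LNCaP cells androgens are known to lower the expression of both genes. The family arose by duplication on chromosome 4, and its members are close copies of each other. Whether reads matching several copies were kept is not given in the sources used here, so marks at these genes are uncertain to that extent.

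The members lay along 989 kb, chr4:68537173-69526014, in the order given above. Neighbouring members were 55.5 to 219 kb apart, and no member's window overlapped another's. RefSeq placed 8 protein-coding genes in this span, the 7 members and UGT2A3, together with 26 pseudogenes and 3 long noncoding RNA genes.

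The promoters of 4 members were in the RefSeq promoter table (GRCh38.p14). They are shown because UGT2B15 was the member with a mark at its start, UGT2B7 had a mark just upstream of it, and UGT2B10 and UGT2B11 had neither. Each runs 5′ to 3′ from 250 bases before the start to 50 bases from it. Capitals mark matches, on either strand, to the short androgen response motif AGAACA, the forkhead motif TGTTTAC or the motif AGATAA, which zinc-finger factors of the GATA family bind. UGT2B15 is at chr4:68670603-68670902 on the minus strand, UGT2B7 at chr4:69096224-69096523 on the plus strand, UGT2B10 at chr4:68815744-68816043 on the plus strand and UGT2B11 at chr4:69214699-69214998 on the minus strand.
UGT2B15: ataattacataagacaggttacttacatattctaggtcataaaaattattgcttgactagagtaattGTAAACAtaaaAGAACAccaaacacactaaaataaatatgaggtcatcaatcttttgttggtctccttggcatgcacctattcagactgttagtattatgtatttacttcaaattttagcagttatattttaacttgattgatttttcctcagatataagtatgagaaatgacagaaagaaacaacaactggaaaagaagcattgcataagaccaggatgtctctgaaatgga
UGT2B7: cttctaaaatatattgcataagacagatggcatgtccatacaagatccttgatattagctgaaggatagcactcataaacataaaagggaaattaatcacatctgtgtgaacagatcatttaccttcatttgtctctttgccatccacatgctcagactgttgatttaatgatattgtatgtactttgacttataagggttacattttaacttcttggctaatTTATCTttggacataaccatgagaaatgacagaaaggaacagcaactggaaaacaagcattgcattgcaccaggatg
UGT2B10: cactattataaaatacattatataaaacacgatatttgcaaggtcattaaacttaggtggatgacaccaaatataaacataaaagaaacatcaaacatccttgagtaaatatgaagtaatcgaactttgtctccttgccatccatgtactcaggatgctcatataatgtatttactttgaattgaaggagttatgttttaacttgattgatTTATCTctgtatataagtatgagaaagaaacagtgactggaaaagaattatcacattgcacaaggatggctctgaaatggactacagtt
UGT2B11: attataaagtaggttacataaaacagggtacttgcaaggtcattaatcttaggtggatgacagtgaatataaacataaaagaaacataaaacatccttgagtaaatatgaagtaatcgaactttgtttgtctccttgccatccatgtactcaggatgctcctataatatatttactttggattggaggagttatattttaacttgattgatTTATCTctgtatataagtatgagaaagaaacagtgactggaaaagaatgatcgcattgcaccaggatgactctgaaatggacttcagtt

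These promoters were rich in A and T. Their GC content was 30.3% for UGT2B15, 35.0% for UGT2B7, 31.0% for UGT2B10 and 33.0% for UGT2B11, against a median of 62.7% over 15813 promoters of protein-coding genes, of which 2.08% had a GC content no higher than that of UGT2B7. UGT2B10 and UGT2B11 had the closest pair of sequences, at 90.1% identity over the alignment with gaps counted. UGT2B15 was 69.4% identical to UGT2B10, 70.6% to UGT2B11 and 65.4% to UGT2B7. The forkhead match of UGT2B15 began 183 bases before its start, and AGAACA 172 bases before it. TGTTTAC was found in 2.62% of all promoters and the other motif in 11.2%. The match to AGATAA was shared by the other 3, beginning 27 bases before the start of UGT2B7 and 39 bases before those of UGT2B10 and UGT2B11. This motif was found in 7.55% of all promoters. Most promoters are much richer in GC than these, and UGT2B10 and UGT2B11 are near copies, so no enrichment of a motif can be read from these shares. Neither the full palindromic androgen response element, which contains AGAACA, nor the palindromic HNF1 site or GTTAAT, the short motif within it, was present in these 4 windows on either strand. The shares of all promoters with these were 0%, 0.00632% and 5.26%. A match is only a run of letters, and binding was not measured.

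Both marks were found at UGT2B15 and UGT2B7, H3K4me1 without H3K27ac at UGT2B11 and UGT2B28, and neither at UGT2B17, UGT2B10 and UGT2B4. The H3K27ac calls were weak: with a -log10 q of at least 5 only UGT2B15 kept one (the 3 peaks of UGT2B7 had 2.84, 3.96 and 2.84), and with at least 10 fragments at the summit no member did. The share of all protein-coding genes that keep a peak under these stricter settings is not given here. Of all H3K27ac peaks, 38.5% had under 10 fragments. With every called peak counted, H3K27ac lay in the window of 2 of 7 members, whereas 84.6% of 19974 protein-coding genes had it in the same kind of window. An H3K4me1 peak lay in the window of 4 of 7, against 89.4% of genes. Both marks were found for 82.8% of genes, H3K4me1 alone for 6.59% and neither for 8.77%, which in the UGT2B group were 2, 2 and 3 of 7. Within the gene bodies alone the counts were 2 of 7 for each mark, against 72.7% of genes for H3K27ac and 75.7% for H3K4me1. With 7 neighbouring genes of common origin these are counts to describe the locus, not independent draws.

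**Figure D1:**
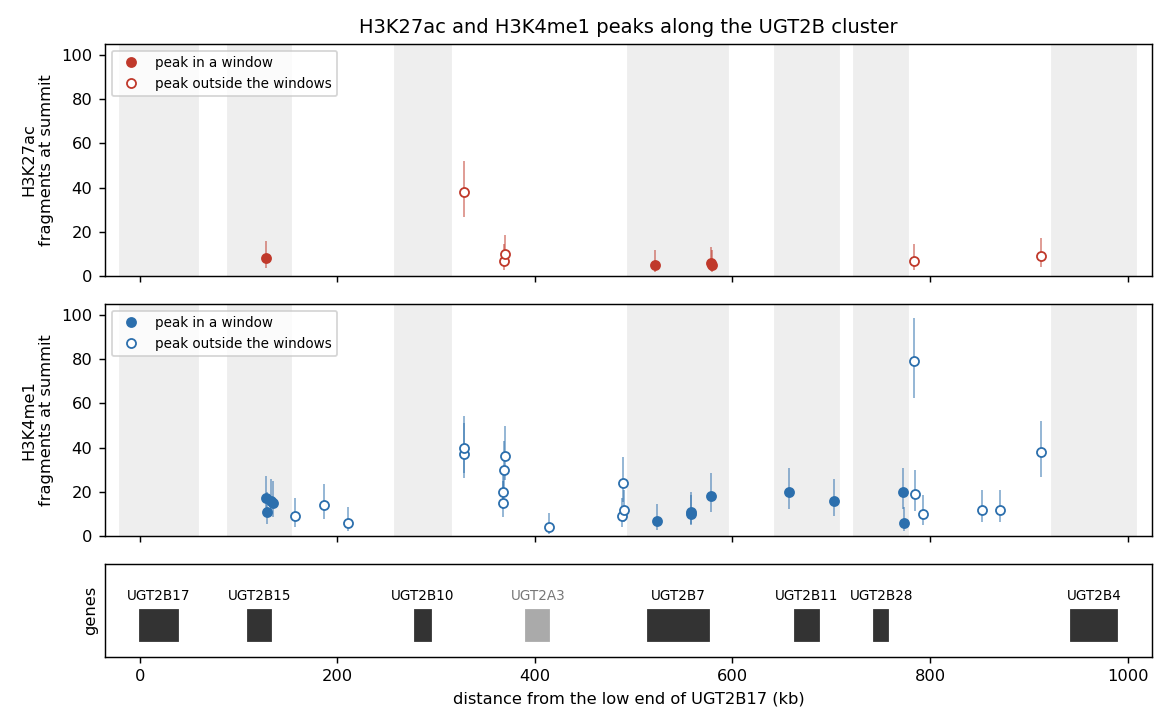
Fragments at the summit of each H3K27ac peak (upper panel) and H3K4me1 peak (middle panel) against distance in kb from the low end of UGT2B17, with exact Poisson 95% intervals; shading marks the gene bodies with 20 kb on either side, filled points are peaks inside these windows and open points are peaks between them. The deepest peaks of both marks, 38 H3K27ac and 79 H3K4me1 fragments, are open points, and the windows of UGT2B17, UGT2B10 and UGT2B4 are empty.

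Peak strength is given below as the fragments piled up at the summit, recovered from the deposited fold enrichment and p, with an exact Poisson 95% interval for counting error. The fold enrichment is the authors' own ratio of summit signal to local background. Over the whole lists the median was 13 fragments for H3K27ac and 18 for H3K4me1, and the shallowest called peak of either list had 4. A window without a peak therefore means that no signal passed the authors' threshold at this depth, not that the mark was absent.

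UGT2B15, one of the main enzymes that conjugate dihydrotestosterone, had 4 H3K4me1 peaks in its window, as many as UGT2B7. Its gene body (gene ID 7366, chr4:68646597-68670652, minus strand) held 3 H3K4me1 peaks and its upstream flank 1. The peak at the start, chr4:68670520-68670631, lay 21 bases inside the gene, shared 29 bases with the promoter printed above, and had 16 fragments (9.15 to 26.0). The upstream peak, chr4:68671632-68672054, lay 0.980 kb before the start and had 15 fragments (8.40 to 24.7). These intervals are wide and overlap almost entirely, so a difference in depth between the sides of the start was not resolved.

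Further into UGT2B15, 5.70 kb from the start, H3K4me1 at chr4:68664702-68664957 had 17 fragments (9.90 to 27.2) and a fold enrichment of 11.9. The gene's only H3K27ac peak, chr4:68664766-68664906, lay wholly inside it, with 8 fragments (3.45 to 15.8), a fold enrichment of 6.22 and a q of 3.9e-07. This was the deepest H3K27ac peak in any member's window, although 28.0% of the whole list had fewer fragments. The remaining H3K4me1 peak, chr4:68665752-68665975, had 11 fragments (5.49 to 19.7) and no H3K27ac over it. The start of UGT2B15 thus carried H3K4me1 on both sides without a called H3K27ac peak, and the place with both marks was inside the gene.

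UGT2B17, the close relative of UGT2B15 that also conjugates testosterone and dihydrotestosterone, had no peak of either mark. Its body (gene ID 7367, chr4:68537173-68576322) lay in a stretch of 166 kb without an H3K4me1 peak and of 201 kb without an H3K27ac peak. Of all distances between neighbouring peaks of a list, 1.48% were at least this long for H3K4me1 and 3.59% for H3K27ac, where the medians were 4.32 and 11.2 kb. These shares count distances, and a long distance takes up more of the genome than a short one. The share of genes that lie in stretches this long was not computed. The nearest H3K4me1 peak was 38.5 kb from the gene, with 40 fragments, on the side of TMPRSS11E, a membrane serine protease gene. The nearest H3K27ac peak was 73.0 kb away, with 22 fragments. How far reads from UGT2B17 were placed on UGT2B15, or discarded, was not tested.

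UGT2B28, another member with activity on androgens, had H3K4me1 in its flank only. Its body (gene ID 54490, chr4:69280475-69295050) held no peak. Beyond its high end, H3K4me1 at chr4:69310438-69310553 lay 15.4 kb away with 20 fragments (12.2 to 30.9), and a second peak, chr4:69310656-69310783, had 6 (2.20 to 13.1). Just outside the window, 26.1 kb from the gene, chr4:69321128-69321716 had 79 fragments (62.5 to 98.5) and a fold enrichment of 26.1. More fragments than at any other H3K4me1 peak of the cluster were found there, and 94.4% of the whole list was shallower. An H3K27ac peak of 7 fragments (2.81 to 14.4), chr4:69321121-69321473, shared 346 bases with it. No gene of the RefSeq table overlapped this site.

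UGT2B7, which conjugates several steroids as well as drugs such as morphine, had the most peaks of both marks together. Its listed span (gene ID 7364, chr4:69051375-69112987) begins 45.1 kb before the start site given by the promoter table. The gene table gives no exons, so peaks within gene bodies are not placed in exons or introns. A pair of H3K4me1 peaks lay before that start site. The nearer, chr4:69095360-69095637, was 0.837 kb upstream with 11 fragments (5.49 to 19.7), and the farther, chr4:69095137-69095264, was 1.21 kb upstream with 10 (4.80 to 18.4). As at UGT2B15, no H3K27ac peak accompanied them.

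The H3K27ac peaks of UGT2B7 were away from the start site. Beyond the far end of the gene, chr4:69115248-69115382 had 6 fragments (2.20 to 13.1) and chr4:69115626-69115781 had 5 (1.62 to 11.7). Both lay inside a single H3K4me1 peak, chr4:69115171-69115816, which was 2.18 kb past the gene and had 18 fragments (10.7 to 28.4). This was the second place in the windows where the marks met. Near the low end, within both UGT2B7 and the long noncoding RNA gene LOC105377265, an H3K27ac peak of 5 fragments (chr4:69058935-69059112) stood without H3K4me1, and an H3K4me1 peak of 7 fragments (2.81 to 14.4), chr4:69060784-69060898, followed it. Both are near the lowest depth called in the lists.

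**Figure D2:**
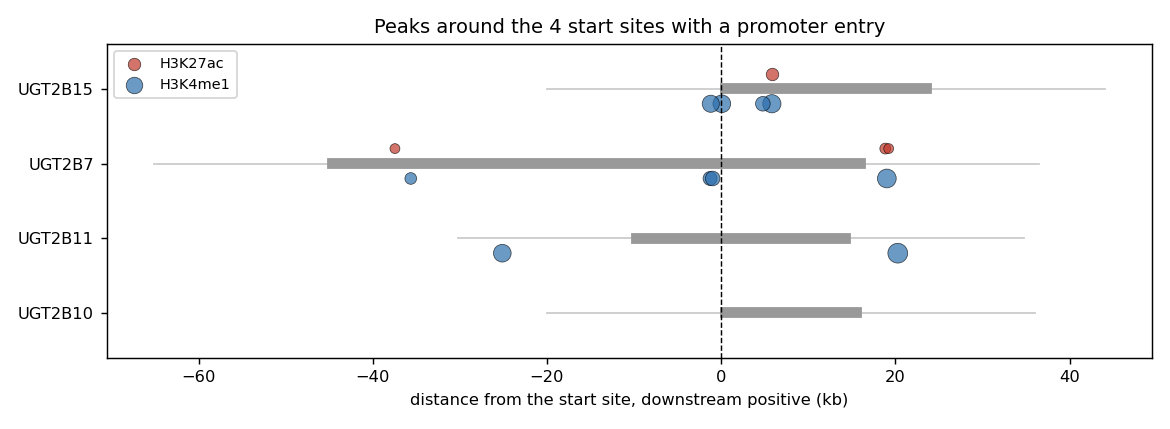
Peaks of both marks in the windows of the 4 members with a promoter entry, against distance in kb from the start site with downstream positive; point area follows the fragments at the summit, thick bars are gene bodies and thin lines the windows. H3K4me1 lies next to the start of UGT2B15 (21 bases) and UGT2B7 (0.837 kb), while the H3K27ac peaks are 5.75 kb or more from a start.

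UGT2B11 had H3K4me1 on both sides but none inside the gene (gene ID 10720, chr4:69199951-69224984, minus strand). Past its low end, chr4:69194183-69194763 lay 5.19 kb from the gene, within the long noncoding RNA gene LOC105377267, with 20 fragments (12.2 to 30.9). Upstream, chr4:69239706-69240041 had 16 fragments (9.15 to 26.0) and lay 25.0 kb from the start site. H3K27ac was not called within 84.2 kb of UGT2B11, the largest such distance among the 7 members.

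UGT2B10, which conjugates nicotine and other amines, and UGT2B4, which acts on bile acids, had no peak in their windows. UGT2B10 (gene ID 7365, chr4:68815994-68832023, plus strand) had its nearest H3K4me1 32.5 kb and its nearest H3K27ac 33.2 kb away. That H3K27ac peak, chr4:68865211-68865473, had 38 fragments (26.9 to 52.2), more than any other in the cluster, and lay wholly inside an H3K4me1 peak of 40 fragments (28.6 to 54.5). It fell within LOC101930041, listed by RefSeq as a pseudogene. UGT2B4 (gene ID 7363, chr4:69480165-69526014) was 30.9 kb from a site where H3K4me1 had 38 fragments (26.9 to 52.2) and H3K27ac 9 (4.12 to 17.1). With a flank of 50 kb in place of 20 kb, all 7 members had H3K4me1, UGT2B17 included, and 5 had H3K27ac. The share of all protein-coding genes with a 50 kb flank is not given here. It cannot be below the 89.4% for H3K4me1 and 84.6% for H3K27ac found with 20 kb.

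The H3K27ac peaks in the windows were shallow, and those of H3K4me1 were closer to the rest of their list. H3K27ac had a median of 5.50 fragments (range 5 to 8), all 4 peaks under 10, where 38.5% of the whole H3K27ac list was under 10. H3K4me1 had a median of 15.5 fragments (range 6 to 20), with 2 of 12 under 10, where 22.3% of its list was. H3K27ac peaks were 135 to 178 bp wide, with a median of 148 bp against 250 bp in the list, and H3K4me1 peaks 112 to 646 bp, with a median of 240 bp against 207 bp. Between the windows lay 5 further H3K27ac peaks of 7 to 38 fragments and 19 further H3K4me1 peaks of 4 to 79. Of these, 3 H3K27ac and 7 H3K4me1 peaks were deeper than every peak of the same mark inside a window.

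**Figure D3:**
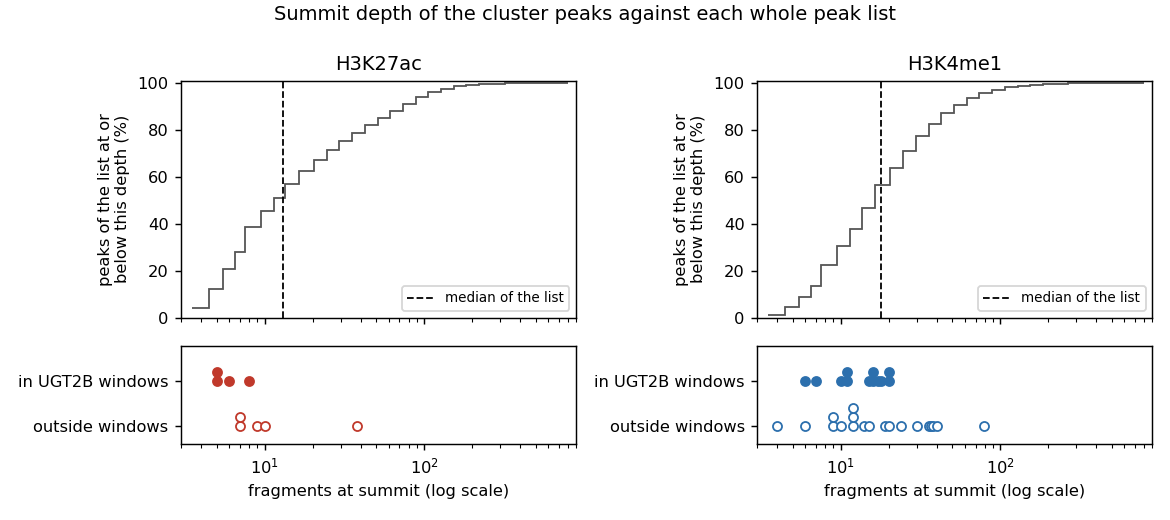
Upper panels show the cumulative share of each whole peak list against fragments at the summit on a log axis, with the list median dashed; lower panels show the cluster's peaks inside (filled) and outside (open) the UGT2B windows. All 4 H3K27ac peaks in the windows are left of the list median of 13 fragments, and 2 of the 12 H3K4me1 peaks (20 fragments each) are right of its median of 18.

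The marks met at UGT2B15 and beyond the far end of UGT2B7. Of the 4 H3K27ac peaks, 3 overlapped H3K4me1 by at least 1 bp (75%, exact Clopper-Pearson 95% interval 19.4 to 99.4), where the share of the whole list was 73.6%, and 2 of the 3 lay in the same H3K4me1 peak. In the other direction 2 of 12 H3K4me1 peaks overlapped H3K27ac (16.7%, 2.09 to 48.4), where the whole list had 38.1%. Both list-wide shares fall inside these wide intervals, so no difference from the rest of the genome can be read at this number of peaks.

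Per length of window, the members were below the middle of all genes for both marks. H3K27ac density was 2.95 peaks per 100 kb at UGT2B7, 1.56 at UGT2B15 and 0 at the other 5, and the median over all protein-coding genes was 4.16 (quartiles 1.55 and 8.28). H3K4me1 density was 6.24 peaks per 100 kb at UGT2B15, 3.94 at UGT2B7, 3.66 at UGT2B28, 3.08 at UGT2B11 and 0 at the other 3, and the median over genes was 7.40 (quartiles 3.44 and 13.1). The order of UGT2B15, UGT2B7, UGT2B28 and UGT2B11 rests on 4, 4, 2 and 2 peaks and is not resolved, and the first 2 differ only in window length (64.1 and 102 kb). The windows were 54.6 to 102 kb long, and the median over genes was 64.2 kb.

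**Figure D4:**
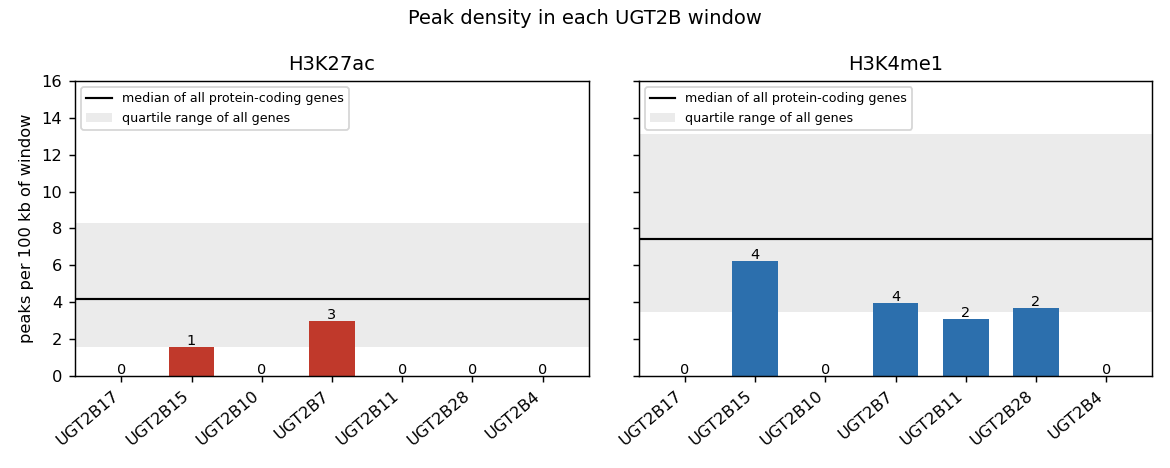
Peaks per 100 kb of window for each member in chromosome order, with the number of peaks above each bar; the line is the median and the shading the quartile range over 19974 protein-coding genes. Every member is below the median for both marks, and 3 members have no peak of either mark.

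At gene ends, which stand for promoters where the start site is not in the tables, no member had H3K27ac within 1 kb and 1 of 7, UGT2B15, had H3K4me1. Among all protein-coding genes 62.3% had H3K27ac and 65.6% had H3K4me1 there, and 31.0% had neither. The start sites of UGT2B7 and UGT2B11, 45.1 and 10.2 kb inside their listed spans, are not counted by this rule. No super-enhancer-like region, called by joining H3K27ac peaks away from gene ends over gaps of at most 12.5 kb, lay in a member's window. The nearest of 1324 such regions, rank 1095 at chr4:70838808-70840091, was 1313 kb from UGT2B4 and 2262 kb from UGT2B17. How far other genes lie from such a region was not computed, so these distances cannot be called unusual. The highest-ranked joined H3K27ac regions in the windows held ranks 20250 (UGT2B15) and 21764 (UGT2B7) of 25233.

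The cells carried both marks at prostate luminal genes. The shares over all protein-coding genes are those just given for gene ends, and these marks do not test which prostate line was used or its resistance. All 12 luminal markers examined, KLK3 and KLK2 among them, had both marks within 1 kb of an end. KRT8 and KRT18 overlap at an end and had the same pileups (178 H3K27ac and 47 H3K4me1 fragments), so they are not separate observations. H3K27ac was found there at 0 of 4 basal, 2 of 8 liver, 3 of 5 intestinal, 2 of 4 blood and 0 of 4 stromal markers, and H3K4me1 at 2, 2, 2, 1 and 1 of them. The liver, where most UGT2B genes are chiefly expressed, is represented by ALB with 0 H3K27ac and 1 H3K4me1 peak in its window.

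Genes around the glucuronidation reaction were marked in part. The 49 genes chosen covered supply of the sugar and its removal, other glycosyltransferases, conversion of dihydrotestosterone, sulfation and conjugate transport. Of these, 18 had H3K27ac and 21 had H3K4me1 within 1 kb of an end, and 28 had neither. This is fewer marked genes than the shares of 62.3%, 65.6% and 31.0% over all protein-coding genes. The 9 UGT1A genes overlap and share their high end, and 8 of them are among the 28, so the 49 are not independent. Of the 5 genes listed under supply of the sugar and its removal, 4 had both marks at an end. UGDH, the enzyme that makes UDP-glucuronic acid, had 155 fragments of H3K27ac (132 to 181) and 58 of H3K4me1 (44.0 to 75) at an end. UGP2, which makes the UDP-glucose that UGDH uses, had 97 (78.7 to 118) and 58, and the transporter gene SLC35B1 had 131 (110 to 155) and 27 (17.8 to 39.3). Whether SLC35B1 carries this sugar was not examined, so its marks are not read as supply of it. SLC35D1, which carries UDP-glucuronic acid into the endoplasmic reticulum, had neither mark at an end. At the ends of the UGT2B genes themselves the deepest peak of either mark had 16 fragments, in the same libraries.

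Of the 15 other glycosyltransferases, 9 of them the overlapping UGT1A genes, 2 had H3K27ac and 3 had H3K4me1 at an end. UGT8, a galactosyltransferase of myelin lipid synthesis, had 20 and 70 fragments, and UGT1A6 had 8 (3.45 to 15.8) and 25 (16.2 to 36.9). UGT2A3, inside the UGT2B cluster, had an H3K4me1 peak of 4 fragments at an end. The neighbours UGT2A1 and UGT2A2, which share most of their span, had no H3K4me1 peak in their windows and 1 H3K27ac peak, the same for both. Of the 16 genes for conversion of dihydrotestosterone, 6 had H3K27ac and 8 had H3K4me1 at an end. SRD5A1, which makes dihydrotestosterone, had 142 (120 to 167) and 38 (26.9 to 52.2) fragments, and SRD5A3 had 72 and 51.

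Sulfation offers another way to inactivate steroids. Of the 5 genes listed under it, 2 had both marks at an end, SULT2B1 and STS. STS encodes the sulfatase that removes the sulfate again, and had 37 fragments of H3K27ac and 31 of H3K4me1. SULT2B1 had 28 fragments of H3K27ac (18.6 to 40.5) and 87 of H3K4me1 (69.7 to 107), while SULT2A1 had no peak in its window. Among 8 conjugate transporters 4 had both marks at an end. ABCC3, an exporter of glucuronides, had 20 and 85 fragments, and the liver uptake transporters SLCO1B1 and SLCO1B3 had no peak in their windows. The genes most like the UGT2B median in density of both marks, among the 49 and over the 2 libraries, were UGT3A1, UGT1A1 and CYP3A5, at distances of 0.0884, 0.227 and 0.346 on a log2 scale of 1 + peaks per 100 kb. Each had 0 H3K27ac peaks in its window and 3, 2 and 3 H3K4me1 peaks.

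**Figure D5:**
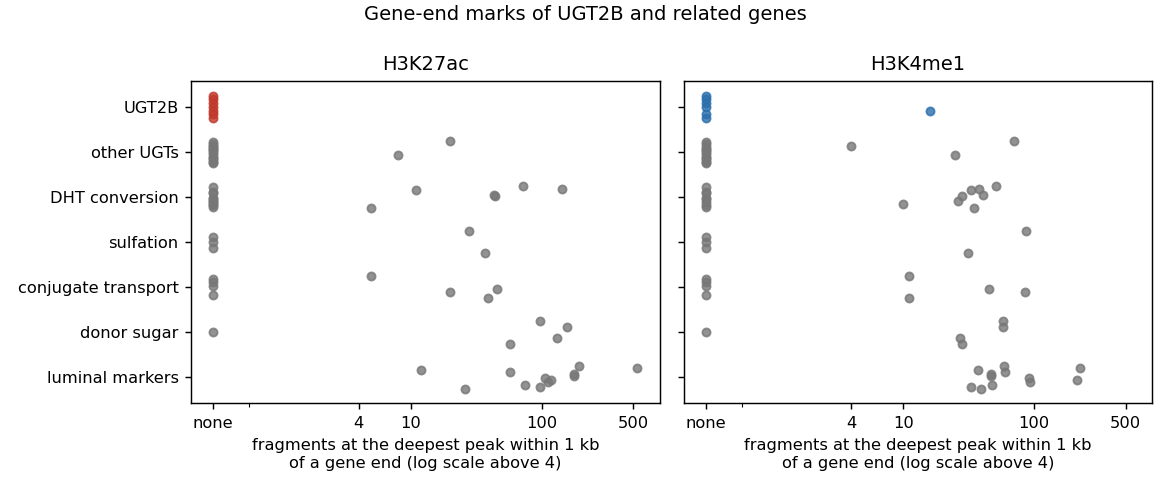
Fragments at the deepest peak within 1 kb of either gene end, on a log axis above 4 with genes lacking a peak at the left, for UGT2B, the 5 groups of related genes and the luminal markers; each point is a gene. UGT2B has 1 H3K4me1 point, UGT2B15 at 16 fragments, while UGDH among the donor sugar genes reaches 155 H3K27ac fragments.

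The UGT1A family on chromosome 2 and the kallikrein genes on chromosome 19, which include androgen-driven genes, gave 2 clusters to set beside UGT2B over the span of each with 20 kb on either side. UGT2B had 0.875 H3K27ac peaks per 100 kb (0.400 to 1.66, exact Poisson on 9 peaks), UGT1A had 2.04 (0.557 to 5.23, 4 peaks) and the kallikreins 10.2 (6.90 to 14.4, 31 peaks). H3K4me1 gave 3.01 (2.05 to 4.28), 4.60 (2.10 to 8.73) and 16.1 (11.9 to 21.2) peaks per 100 kb in the same order. The intervals of UGT2B and UGT1A overlap for both marks, and those of UGT2B and the kallikreins do not. Peaks near each other are not independent, so these intervals are likely too narrow. The spans also differ in gene content, with 7 members in 1029 kb for UGT2B, 9 genes in 196 kb for UGT1A and 15 in 305 kb for the kallikreins. These densities were not adjusted for gene content or set beside a genome-wide density. Summit depth followed the same order only in part, with median H3K27ac pileups of 7, 8 and 36 fragments and median H3K4me1 pileups of 15, 11 and 31.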

How the data were processed

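Histone marks were profiled by CUT&Tag in 2 libraries of the resistant line, 1 per mark. BWA, MACS2 and hg38 are named in the submitters' processing notes; versions, settings, duplicate removal and any background library are not given in the sources used here. The deposited peak lists, called per library, give a fold enrichment (a ratio), -log10 p and -log10 q at each summit, and a score that equals 10 times -log10 q rounded down for nearly all peaks, as the values in the deposited lists show. Another column gives the summit position.

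Summit pileups k were recovered with background lambda from fold = (k + 1) / (lambda + 1) and p, the Poisson probability above k, with Python 3.11.15 and scipy 1.17.1. A whole number gave the deposited p within 0.001 in -log10 p or a relative 0.0001 for 100% of peaks, and each peak of the cluster had a single solution. The recovery and the overlap search were tested on simulated data. Total depth is unknown. Poisson intervals would be too narrow if PCR duplicates were kept. Intervals are 95% and cover counting error only.

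Genes and promoters came from RefSeq tables for GRCh38.p14, and 4 of 7 members had a promoter entry. UGT2B17, UGT2B28 and UGT2B4 had none, so both gene ends were used for all members. Promoters were aligned globally with Biopython 1.88 (match 1, mismatch -1, gap opening -2, extension -0.5). Backgrounds are the same counts over 19974 protein-coding genes. Named genes were all members, the genes in and beside the cluster, and of the 49 related genes UGDH, the 5 deepest at an end for each mark, those with no peak, and the 3 most like the members. UGT1A6, SLC35D1, STS, KLK3, KLK2 and ALB, outside this rule, were named after their values were seen. Super-enhancer-like regions were called after joining H3K27ac peaks not wholly within 2.5 kb of gene ends and ranked by fold times length. The members and lists were chosen with earlier results of these data known. Alternatives varied the flank, the threshold, the depth, the overlap and the window at gene ends. A luminal marker of the list is not reported here.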

Additional observations from a re-analysis of the deposited data

How the results depend on the processing

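The flank decided most counts. Without it H3K27ac peaks fell from 4 to 2, of which 1 overlapped H3K4me1, and H3K4me1 peaks from 12 to 6, at 2 members, of which 1 overlapped H3K27ac. With a flank of 50 kb there were 7 H3K27ac peaks at 5 members, 6 of them over H3K4me1, and 24 H3K4me1 peaks at all 7 members, 5 of them over H3K27ac. A -log10 q of at least 5 left 1 H3K27ac peak at 1 member, with 1 overlap in each direction, and at least 10 fragments at the summit left 0 H3K27ac peaks at 0 members and 0 overlaps in either direction. Within 2.5 kb of an end, and likewise within 5 kb, 1 member had H3K27ac and 2 had H3K4me1. At the 5 prime start alone, 2 of the 4 members with a known start (UGT2B15 and UGT2B7) had H3K4me1 within 1 kb. No share over all protein-coding genes is given here for the 50 kb flank, the wider end windows or the 5 prime start. Nor is one given for the -log10 q of at least 5 or the limit of 10 fragments. The other 14 recomputed counts stayed within 1.5 times of those reported. No paired analysis was possible because each mark has 1 library. Depth limits the absence of a mark: peaks below 4 fragments were not called.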
